A study of Homo sapiens with 3 samples.

Results

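Accessible regions of hCMEC/D3 cells were examined that lie at the ends of long noncoding RNA (lncRNA) genes and nowhere near the end of a protein-coding gene. hCMEC/D3 is an established human line that models the endothelium of brain capillaries, and per the labels it was grown to confluence on collagen. The series holds 3 libraries of this line without treatment or a second cell type. They are 2 RNA-seq libraries, which are not used here, and 1 ATAC-seq library, replicate 2, in which the Tn5 transposase cut and tagged open chromatin. A region was taken when an ATAC peak came within 1 kb of either end of a lncRNA gene and lay more than 5 kb from every end of a protein-coding gene, on chromosomes 1 to 22 and X. This held for 4369 of the 106415 peaks in the list. Gene positions came from the RefSeq gene table of GRCh38.p14, with 18177 lncRNA genes and 19974 protein-coding genes on those chromosomes. With 1 ATAC library there is no replicate, so no test between samples was possible, and every value below describes this library. Intervals of shares are 95% Wilson intervals, which cover counting over peaks or genes only and treat them as independent.

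A lncRNA is a long transcript that is not read into protein. Most are made by RNA polymerase II from promoters of their own, and many run antisense to, beside or within a protein-coding gene, so an open region near a lncRNA often sits at a coding promoter as well. The regions described here are kept away from the outer ends of coding genes. The rule does not remove coding promoters that lie farther inside a gene. In vessels, lncRNAs such as MALAT1, MEG3 and SENCR are known for their part in endothelial growth and in the state of vascular cells, and several microRNAs of the vessel wall are cut from lncRNA precursors.

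The sequences of 8 lncRNA promoters under such peaks show that these starts are of different kinds. They were picked, after pileups and motif content had been seen, from the highest pileups and the named lncRNAs to show starts rich and poor in CG, so they are not a representative sample. Each runs from 250 bases before the start of the lncRNA to 50 bases after it, on the strand of the lncRNA, and is taken from RefSeq (GRCh38.p14). Capitals mark matches on either strand to the GC box GGGCGG, the site of SP and KLF factors, and to TGANTCA, the site of AP-1 (the FOS and JUN factors). The first set is rich in CG and comprises MALAT1 at chr11:65497488-65497787 on the plus strand, MIRLET7A1HG at chr9:94166008-94166307 on the plus strand and SLC25A28-DT at chr10:99620595-99620894 on the plus strand.
MALAT1: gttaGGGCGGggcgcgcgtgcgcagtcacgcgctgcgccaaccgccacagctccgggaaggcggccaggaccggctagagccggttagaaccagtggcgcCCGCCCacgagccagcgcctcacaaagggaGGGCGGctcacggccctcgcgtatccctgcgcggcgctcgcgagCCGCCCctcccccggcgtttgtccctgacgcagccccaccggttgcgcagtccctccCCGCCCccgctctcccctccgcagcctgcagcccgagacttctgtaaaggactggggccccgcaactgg
MIRLET7A1HG: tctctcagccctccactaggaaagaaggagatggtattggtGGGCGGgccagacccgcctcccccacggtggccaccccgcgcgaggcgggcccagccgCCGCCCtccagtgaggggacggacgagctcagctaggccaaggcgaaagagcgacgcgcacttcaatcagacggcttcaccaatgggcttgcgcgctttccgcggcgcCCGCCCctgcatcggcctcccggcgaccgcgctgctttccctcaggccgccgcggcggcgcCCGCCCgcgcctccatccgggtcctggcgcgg
SLC25A28-DT: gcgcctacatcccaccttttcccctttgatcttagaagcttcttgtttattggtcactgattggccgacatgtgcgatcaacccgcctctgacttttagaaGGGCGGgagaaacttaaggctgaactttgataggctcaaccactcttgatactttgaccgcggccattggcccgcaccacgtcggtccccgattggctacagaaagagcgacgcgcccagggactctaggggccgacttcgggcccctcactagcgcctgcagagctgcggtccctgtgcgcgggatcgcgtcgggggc
The second set is poor in CG. It comprises LINC00607 at chr2:215843487-215843786 on the minus strand, RUNX1-AS1 at chr21:34836063-34836362 on the plus strand, MIR181A1HG at chr1:198937380-198937679 on the minus strand, KCNMA1-AS3 at chr10:77350622-77350921 on the plus strand and SENCR at chr11:128695974-128696273 on the minus strand.
LINC00607: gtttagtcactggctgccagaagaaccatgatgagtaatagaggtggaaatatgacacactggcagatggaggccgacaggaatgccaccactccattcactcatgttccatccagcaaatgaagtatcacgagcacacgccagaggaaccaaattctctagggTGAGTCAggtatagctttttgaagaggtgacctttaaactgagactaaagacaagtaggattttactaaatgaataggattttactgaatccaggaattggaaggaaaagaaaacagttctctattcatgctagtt
RUNX1-AS1: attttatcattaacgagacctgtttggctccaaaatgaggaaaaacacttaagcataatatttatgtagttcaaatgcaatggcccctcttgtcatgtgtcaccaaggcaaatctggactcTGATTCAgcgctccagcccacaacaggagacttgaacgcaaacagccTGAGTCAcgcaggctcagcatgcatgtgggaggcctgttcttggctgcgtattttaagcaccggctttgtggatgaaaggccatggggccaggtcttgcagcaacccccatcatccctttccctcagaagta
MIR181A1HG: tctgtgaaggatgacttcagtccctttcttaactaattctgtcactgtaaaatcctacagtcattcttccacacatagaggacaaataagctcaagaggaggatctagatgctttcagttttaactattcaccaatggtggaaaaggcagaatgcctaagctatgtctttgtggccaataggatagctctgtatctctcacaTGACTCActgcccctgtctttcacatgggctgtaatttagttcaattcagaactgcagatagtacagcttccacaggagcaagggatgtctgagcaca
KCNMA1-AS3: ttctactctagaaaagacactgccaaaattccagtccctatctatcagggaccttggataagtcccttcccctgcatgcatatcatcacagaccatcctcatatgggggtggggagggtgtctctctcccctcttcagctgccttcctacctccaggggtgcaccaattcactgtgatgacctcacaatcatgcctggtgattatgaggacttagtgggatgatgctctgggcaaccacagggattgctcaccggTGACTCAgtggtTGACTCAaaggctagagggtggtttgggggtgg
SENCR: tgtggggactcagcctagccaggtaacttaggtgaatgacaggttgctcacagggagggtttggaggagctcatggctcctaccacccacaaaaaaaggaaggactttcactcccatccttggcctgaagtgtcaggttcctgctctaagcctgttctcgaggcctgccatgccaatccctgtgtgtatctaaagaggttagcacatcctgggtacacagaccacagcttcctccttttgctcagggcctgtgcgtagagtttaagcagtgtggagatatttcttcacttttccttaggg
The promoters of the first set held 37 CG dinucleotides at MALAT1, 38 at MIRLET7A1HG and 23 at SLC25A28-DT, with 5, 4 and 1 GC boxes and no AP-1 match. In the second set the CG count was 3 at LINC00607, 6 at RUNX1-AS1, 0 at MIR181A1HG, 1 at KCNMA1-AS3 and 2 at SENCR, and there was no GC box. AP-1 matches numbered 1 at LINC00607 and MIR181A1HG and 2 at RUNX1-AS1 and KCNMA1-AS3, and SENCR had none. The pileups over these promoters overlapped between the sets. They were 77.26, 103.47 and 106.62 tags in the first set and 81.53, 77.18, 75.88, 69.15 and 50.3 tags in the second. At LINC00607 the peak covered 270 of the 300 bases and at SENCR 210, and at the other 6 it covered all of them.

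The ATAC list was called from 22188172 tags, kept at 1 tag per position out of 31532245, and the lowest pileup called was 8 tags. A lncRNA end without a peak was therefore not detectable as open at this depth, which does not show it to be closed. As a check of the label, an end peak was present at 9 of 9 endothelial marker genes, with pileups from 10.98 tags at ERG and 13.15 at VWF to 62.65 at CDH5 and 75.02 at EGFL7. It was also present at 5 of 6 markers of other cell types, with 38.48 tags at PDGFRB of pericytes and 21.34 tags at GFAP of astrocytes or less, and absent at ALB. The ranges of the groups overlapped. End peaks of single genes thus did not separate the cell types in this list.

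Peaks at lncRNA ends were stronger and longer than peaks away from any such end, and weaker and shorter than peaks at protein-coding genes. The 4369 peaks had a median pileup of 24.0 tags (quartiles 15.2 and 39.2) and a median length of 537 bp (quartiles 332 and 842 bp). The 73694 peaks away from both kinds of end had medians of 18.99 tags and 403.5 bp, and the 15869 peaks within 1 kb of a protein-coding end had 40.07 tags and 944 bp. Pileup is the number of extended tags that the caller reports for the peak. Distance was taken from the edge of the peak, so a longer peak comes within 1 kb of an end more readily. A pileup of at least 50 tags was found for 618 of the 4369 peaks (14.1%, interval 13.1% to 15.2%), against 12.1% of all 106390 peaks on these chromosomes. The share was 7.23% away from both kinds of end and 33.2% at protein-coding ends. A length of at least 1000 bp was reached by 734 of the 4369 (16.8%), against 12.7% of all peaks, 6.37% away from the ends and 45.4% at protein-coding ends.

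Fold enrichment set these classes apart less. Fold is the authors' value of each peak over a local background from the same library. Its median was 4.63 at lncRNA ends, 4.71 at protein-coding ends and 4.53 away from both. A fold of at least 6 was found for 1074 of the 4369 peaks (24.6%, interval 23.3% to 25.9%), against 22.2% of all peaks. The ratio of pileup to fold had a median of 4.55 tags at lncRNA ends, 8.03 at protein-coding ends and 3.50 away from both. It is not the local background itself, because it also rises with pileup where the background is the same. The ratio was not corrected for this, so how far the background itself differed between the classes was not measured. The part of the background in the differences of pileup was not tested.

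**Figure D1:**
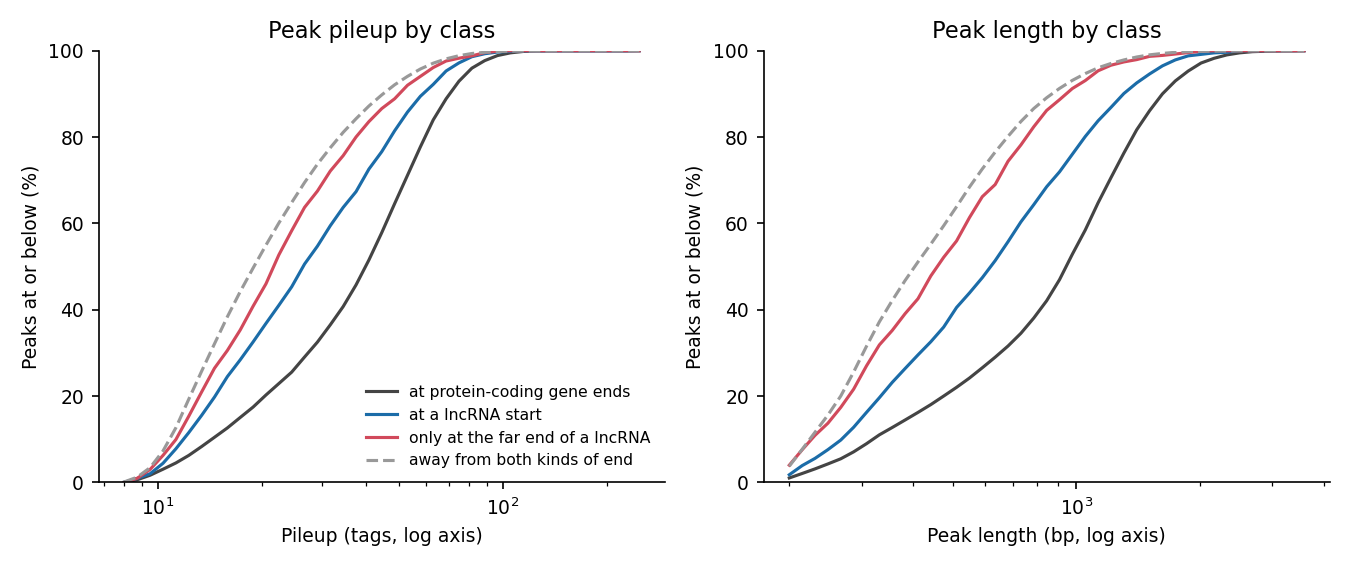
Cumulative share of peaks (vertical axis, %) by pileup in tags (left) and by length in bp (right), both on log axes, for 4 classes of peak in the single ATAC library. Peaks at a lncRNA start lie between those at protein-coding ends and those away from both kinds of end, and peaks only at the far end of a lncRNA lie nearer to the latter, with median pileups of 26.38, 40.07, 18.99 and 21.58 tags in that order.

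Starts of lncRNAs had a peak more often than their other ends. The promoter table gives a strand for 11384 of the lncRNA genes, so that their start can be told from the far end, where transcription stops. By this, 2028 peaks lay at a start, 926 only at a far end and 1415 at genes without a strand. Of the 8122 lncRNA starts more than 5 kb from a protein-coding end, 1943 had such a peak (23.9%, interval 23.01% to 24.86%), compared with 1058 of 9126 far ends (11.6%, interval 10.95% to 12.27%). The 2 intervals did not overlap, and they did not among genes of at least 5000 bp either, with 23.04% of starts and 10.1% of far ends.

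Counting peak centres in steps of 500 bp around the ends of lncRNAs of at least 5 kb gave the background rate at once. Among 5643 starts there were 9.41 peaks per 100 starts in the 500 bp before the start and 7.02 in the 500 bp after it. From 5 to 10 kb away the rate ran from 1.44 to 2.27 over 20 steps, with a mean of 1.83. Around 6651 far ends the rate was 2.60 in the 500 bp before the end and 1.82 in the 500 bp beyond it, with a mean of 1.93 and a range of 1.59 to 2.32 from 5 to 10 kb away. The mean rate within 500 bp was thus 4.50 times the surrounding rate at starts and 1.14 times at far ends. The 500 bp before the far end was the only one of the 2 steps next to it that lay above the range of the surrounding steps.

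**Figure D2:**
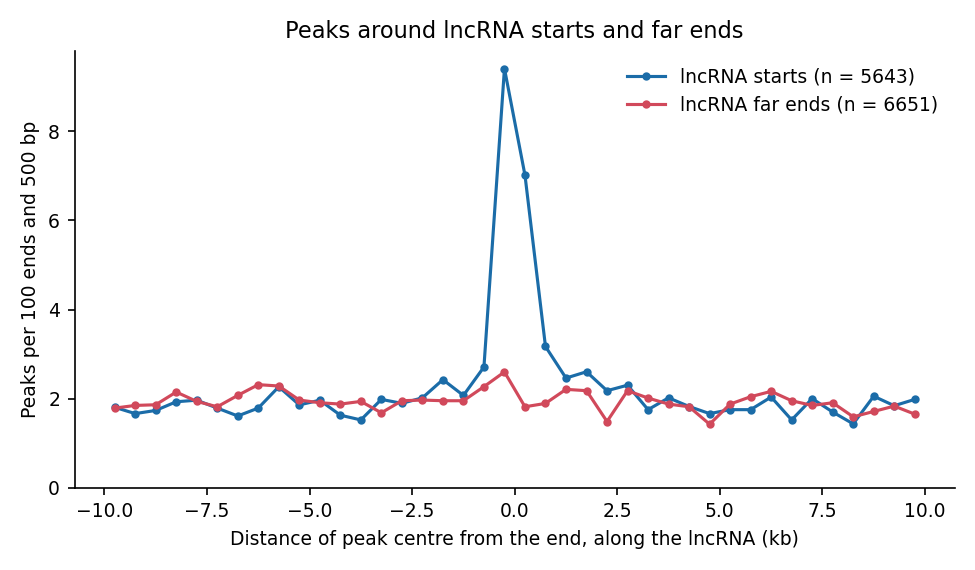
Number of peak centres per 100 ends in steps of 500 bp (vertical axis) against the distance in kb from the lncRNA start or far end, along the direction of transcription (horizontal axis), for lncRNAs of at least 5 kb. The rate at starts rises to 9.41 and 7.02 in the steps on either side of 0, while the rate at far ends reaches 2.60 before the end and otherwise lies near 2.

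The peaks at starts were also the stronger ones, with a median pileup of 26.38 tags and a length of 619 bp over all 2028. Those that covered the start base itself, 1168 of the 2028 (57.6%, interval 55.4% to 59.7%), had a median pileup of 32.6 tags and a median length of 776 bp. A longer peak covers a given base more readily, so length enters this choice, and the like comparison is with far-end peaks that cover the end. The 163 peaks only at a far end that covered it had 22.86 tags and 587 bp. All 926 peaks only at a far end had 21.58 tags and 460 bp, nearer to the 18.99 tags and 403.5 bp of peaks away from both kinds of end. Within the 201 lncRNA genes of at least 5 kb with a peak at each end, the start peak had the higher pileup in 125 (62.2%, interval 55.3% to 68.6%), with medians of 34.42 tags at the start and 21.97 at the far end. MALAT1 was among the exceptions.

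Of the 15834 lncRNA genes with an end more than 5 kb from every protein-coding end, 3870 had such a peak, 24.4% (interval 23.8% to 25.1%). A further 16 genes had one although neither end is that far away, because the peak lay on the distant side. Most of the 3886 genes had 1 peak (3240), while 594 had 2, 51 had 3 and LINC00313 had 4. A peak was shared by ends of at least 2 lncRNA genes in 210 cases. In 79 cases the shared ends were starts, and in 72 of these the starts lay on both strands, as at NUTM2A-AS1 and LINC00863.

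Short lncRNA genes had a peak more often than long ones. The share was 26.9% for genes under 2000 bp, 28.8% for genes of 2000 to 5000 bp (812 of 2819), 23.4% for those of 10000 to 30000 bp and 17.95% for those of 100000 bp or more (172 of 958, interval 15.7% to 20.5%). By chromosome it ran from 16.6% on chromosome 4 (interval 14.3% to 19.2%) to 30.5% on chromosome 17 (interval 26.8% to 34.4%). Chromosome X, at 23.5% of 319 genes, lay within this range. At the limits of the rule the values changed little. The 1171 peaks with a gap of over 500 and up to 1000 bp to a lncRNA end had a median pileup of 22.12 tags, and the 1023 in the next 500 bp, just outside, had 21.68. The 174 peaks in the first 1000 bp beyond the 5 kb kept from protein-coding ends had 27.24 tags, and the 173 in the last 1000 bp within it had 28.12. The median distance of the 4369 peaks to the nearest protein-coding end was 31725 bp.

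Peaks inside and between protein-coding genes had similar medians but differed in the share of long peaks. Inside a protein-coding gene, away from its ends, lay 1457 of the 4369 peaks (33.3%, interval 32.0% to 34.8%), and 2912 lay between such genes. Among all peaks more than 5 kb from protein-coding ends 53% lay inside a gene. The ends of lncRNA genes are placed differently, however: of the 28542 ends at that distance, 27.1% lie inside a protein-coding gene. An end inside a gene had a peak in 18.9% of cases (1467 of 7745, interval 18.1% to 19.8%) and an end between genes in 14.5% (interval 13.98% to 14.94%). For starts alone the shares were 28.3% inside and 22.2% between, and for far ends 14.5% and 10.4%. The rate of peaks inside and between genes away from lncRNA ends was not computed. Whether this difference is particular to lncRNA ends was therefore not tested. The median pileup was 25.46 tags inside and 23.09 between, and the median length 551 and 528 bp. A length of at least 1000 bp was reached by 19.1% of the peaks inside (interval 17.2% to 21.2%) and 15.6% of those between (interval 14.4% to 16.99%), and the intervals did not overlap. A fold of at least 6 was found for 22.2% inside (interval 20.2% to 24.4%) and 25.8% between (interval 24.2% to 27.4%), and these intervals overlapped. Both differences had the same direction among peaks away from both kinds of end, so they are not particular to lncRNA ends. There, 6.69% of peaks inside (interval 6.45% to 6.94%) and 5.99% of those between (interval 5.74% to 6.25%) reached 1000 bp. A fold of at least 6 was found for 21.95% and 24.10% of them.

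The strand of these lncRNAs relative to their host was close to that of the annotation. Of the 735 lncRNA genes whose peak lay inside exactly 1 protein-coding gene of known strand, 666 lay on the opposite strand to it (90.6%, interval 88.3% to 92.5%). A second count took every lncRNA with an end, more than 5 kb from protein-coding ends, inside exactly 1 such gene, with or without a peak. Of these 2434 lncRNAs, 2157 lay opposite to the gene (88.6%), which is within that interval. In this second set, 696 of the 2157 opposite lncRNAs had a peak at either end (32.3%, interval 30.33% to 34.27%), as did 69 of the 277 on the same strand (24.9%, interval 20.18% to 30.32%). The bounds of these intervals lay next to each other.

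The highest pileups inside protein-coding genes, at lncRNAs with a symbol other than LOC and a number, were these. SLC25A28-DT, within the extent of the mitochondrial iron carrier gene SLC25A28, had 106.62 tags over 1390 bp, on chromosome 10 from 99620311 to 99621700. UBE2D3-AS1, in a ubiquitin-conjugating enzyme gene, had 96.14 tags over 1846 bp, on chromosome 4 from 102826769 to 102828614. RAB33B-AS1, in the gene of a small GTPase of the Golgi, had 89.54 tags. These 3 peaks covered the start of their lncRNA. Each was more than 2 times as high as the median at protein-coding ends, but they were picked as the highest. Of peaks at protein-coding ends 97.7% lay at or below 88.6 tags, and of all peaks at lncRNA ends inside protein-coding genes 99.2%. Such heights were thus not particular to lncRNA ends. Whether these 3 peaks also lie at promoters within the host gene was not tested.

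GNA15-DT, in the gene of a G protein alpha subunit, had 83.82 tags with a fold of 8.68. WWTR1-AS1, in the gene of TAZ, a coactivator of TEAD factors, had 77.44 tags over 1635 bp, and RUNX1-AS1, in a transcription factor gene of blood and endothelial development, had 77.18 tags with a fold of 8.37. These also covered the lncRNA start. At 2 of the 10, IQCJ-SCHIP1-AS1 with 86.69 tags and LAMA5-AS1 with 77.76, the peak lay at the far end, at a gap of 769 and 633 bp. LAMA5 encodes a laminin chain of the vessel basement membrane. SLCO4A1-AS2, in an organic anion transporter gene, had 80.81 tags and GSN-AS1, in the gene of the actin-severing protein gelsolin, 75.4 tags, and the table gives no strand for them.

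Between protein-coding genes the highest pileup was 107.46 tags at LINC02736, on chromosome 11 from 65487426 to 65488056. This lncRNA is 1179 bp long, so the peak lay within 1 kb of both of its ends. MIRLET7A1HG, the precursor of let-7 microRNAs, followed with 103.47 tags over 1549 bp, on chromosome 9 from 94165768 to 94167316, and then LINC02018 with 102.72 tags and LINC02026 with 102.01. LINC02021 had 97.5 tags, LINC00663 94.81, the shared start of NUTM2A-AS1 and LINC00863 93.3, OLMALINC 90.5 and LINC01554 89.65. In 8 of these 10 peaks, those at LINC02018, LINC02021, LINC00663 and the shared start among them, the peak covered or came within 30 bp of an end of the lncRNA. The exceptions were MALAT1 and LINC01554, at a gap of 214 and 493 bp.

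**Figure D3:**
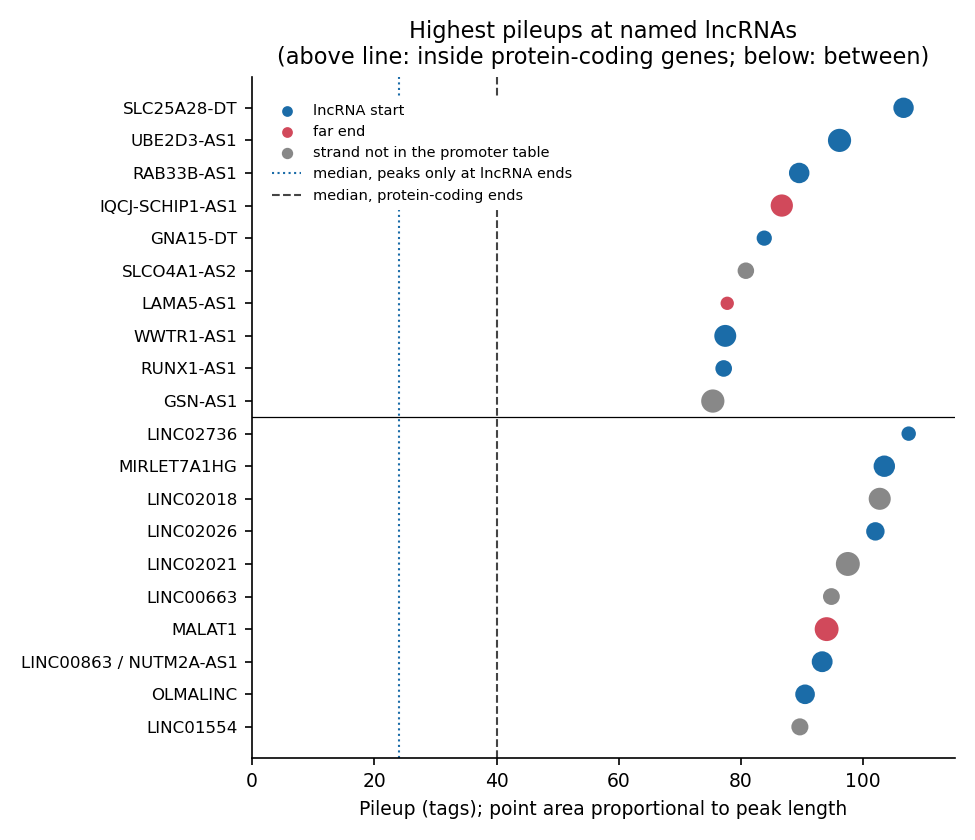
Pileup in tags (horizontal axis) of the 10 highest peaks inside and the 10 highest between protein-coding genes at lncRNAs with a symbol other than LOC and a number, coloured by the end of the lncRNA, with point area proportional to peak length. They run from 75.4 tags at GSN-AS1 to 107.46 at LINC02736, all to the right of the median at protein-coding ends, 40.07 tags (dashed line), and of the median at lncRNA ends, 24.0 (dotted line). The peaks were picked for their height, so their place beyond these medians follows from the choice.

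By length the first 3 were the peak of 2431 bp at the start of DLEU2, the lncRNA gene that carries the miR-15 and miR-16 cluster, with 64.87 tags, that of 2430 bp at FRMD6-AS1 with 48.72 tags, and that of 2402 bp at LINC02535 with 55.15 tags. By fold they were short, with 12.3 at CTB-30L5.1 over 465 bp, 11.98 at KCNMA1-AS3 over 452 bp and 11.3 at LINC01504 over 646 bp. KCNMA1-AS3 lies in the gene of the large-conductance potassium channel of smooth muscle and neurons. Its 4 peaks set LINC00313 apart by number, with pileups of 51.27 and 26.84 tags at its start and 21.58 and 21.15 at its far end, all within HSF2BP. Among lncRNAs with a symbol other than LOC and a number, 17 had 3.

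The highest pileup of all, 248.45 tags, was at LOC101928626 on chromosome 1 from 629101 to 631474. It stands apart from the next, 129.44 tags at LOC105372884. The peak overlaps MTND1P23, MTND2P28 and MTCO1P12, pseudogenes named after mitochondrial genes, its ratio of pileup to fold was 111.8 tags and its fold only 2.22. Whether tags from mitochondrial DNA contributed was not tested.

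Genes known from vascular biology were looked up from a list chosen with earlier results of these data known, so that its share is no independent evidence. Of 37 symbols, 33 are lncRNA genes of the table, 27 of these have an end far enough from protein-coding ends, and 18 had a peak (66.7%, interval 47.8% to 81.4%). The share over all lncRNA genes was 24.4%, and over those with a symbol other than LOC and a number it was 28.4%. The 9 without such a peak were CARMN, CASC15, CDKN2B-AS1, FENDRR, HIF1A-AS1, HIF1A-AS3, HOTTIP, LINC-PINT and MEG8.

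LINC00607, a lncRNA of endothelial cells, had the highest start peak of the list, with 81.53 tags over 467 bp on chromosome 2 from 215843517 to 215843983. MALAT1, an abundant nuclear RNA of speckles, had 77.26 tags over its start, on chromosome 11 from 65497265 to 65497956, and 94.03 tags over 1970 bp at a gap of 214 bp from its far end, from 65506730 to 65508699. The start was thus covered by a peak, whereas the peak near the far end did not cover that end. The peak near the far end was the higher and the longer. NEAT1, the RNA on which paraspeckles form, had 29.09 tags at a gap of 483 bp from an end. The peak at LINC02736 lies between those of NEAT1 and MALAT1, so that the strongest peak between coding genes at a lncRNA with such a symbol and the MALAT1 peaks lie next to each other.

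SENCR, a lncRNA of endothelial and smooth muscle cells, starts inside FLI1, an ETS factor gene of endothelium. Its peak of 50.3 tags over 249 bp, on chromosome 11 from 128695935 to 128696183, had a fold of 2.21. DANCR, a lncRNA of undifferentiated cells, had 71.59 tags, LINC01013 67.72 (and 9.81 near its far end), the X-linked nuclear organizer FIRRE 66.46, CYTOR 66.24 and MIR4435-2HG, a close copy of CYTOR, 59.3, each over its start. Since the copies are nearly alike in sequence, the value of each is uncertain. LINC00520, a flow-responsive lncRNA of endothelium, had peaks of 46.72 and 22.26 tags over its ends. NORAD, which binds Pumilio proteins, had 40.13 tags at its start and 11.73 at its far end, and KCNQ1OT1, an imprinted antisense RNA in KCNQ1, had 38.84.

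Among lncRNAs of imprinted regions the values were spread. MEG3, a maternally expressed RNA, had 16.9 tags over its start, below the median of 24.0, whereas MEG9, farther along the same imprinted region, had 51.52 tags at a gap of 30 bp from its far end. H19 had 14.18 tags at a gap of 819 bp from its start. Of the other listed lncRNAs, MIAT had 49.29 tags at a gap of 721 bp, CCAT1 49.42 at 73 bp and SMILR 10.63 at 89 bp.

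The kinds of lncRNA differed. MicroRNA host genes, whose symbols end in HG, had such a peak in 34 of 73 cases (46.6%, interval 35.6% to 57.9%), with a median pileup of 36.5 tags. Counted by content, 80 of the 231 lncRNAs that enclose a microRNA gene had one (34.6%, interval 28.8% to 40.97%), compared with 24.3% of the 15603 that enclose none. Host genes of small nucleolar RNAs had one in 9 of 15 cases (60%, interval 35.7% to 80.2%). Antisense lncRNAs had one in 443 of 1490 (29.7%), LINC genes in 593 of 2218 (26.7%) and LOC genes in 2518 of 11068 (22.8%, interval 21.98% to 23.54%). The last group accounts for most of the 3886 lncRNAs with a peak, 2527 of them, and for the lowest median pileup among the 4 kinds of symbol with over 200 peaks, 22.97 tags.

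Divergent transcripts are lncRNAs that start at the promoter of a coding gene and run away from it. Of 591 such genes, 325 had an end more than 5 kb from a coding end, and this was the start for 22 of those with a strand and the far end for 250. By their definition, such starts can lie at coding promoters inside a gene, which the distance rule does not remove. Of the 22 starts 13 had a peak (59.1%, interval 38.7% to 76.7%), and of the 250 far ends 29 (11.6%, interval 8.20% to 16.2%). The last share was close to that of all lncRNA far ends. Starts had peaks more often than far ends, beyond the intervals, also for LOC, LINC and antisense genes, for microRNA hosts and for other symbols. For snoRNA hosts (5 of 6 starts and 5 of 13 far ends) and for intronic or overlapping transcripts the intervals overlapped.

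**Figure D4:**
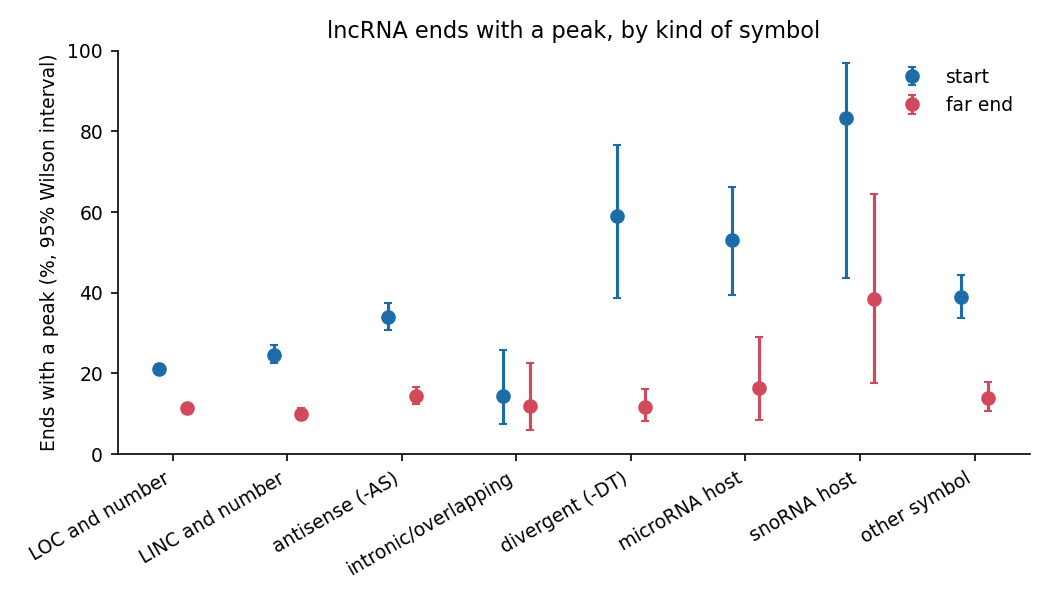
Share of lncRNA ends more than 5 kb from a protein-coding end that had a peak (vertical axis, %), for starts and far ends by kind of symbol, with 95% Wilson intervals as bars. Far ends lie near 11.6% in most kinds, while starts run from 14.3% for intronic or overlapping transcripts, 21.2% for LOC and 24.7% for LINC genes to 53.1% for microRNA hosts and 59.1% for divergent transcripts, and the 6 starts of snoRNA hosts give a wide interval.

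Among the microRNA hosts, MIRLET7A1HG, MIR181A1HG with 75.88 tags, MIRLET7BHG with 74.7 and MIR4458HG with 70.2 had the highest pileups, each over the start. MIR222HG, the precursor of miR-221 and miR-222, which act on growth of endothelial cells, had 3 peaks, with 58.97 tags over its start, 62.74 at a gap of 828 bp from it and 48.03 near the far end. MIR17HG, which carries the miR-17-92 cluster, had a peak of 2380 bp with 48.15 tags, MIR31HG had 49.92 tags, MIR3142HG, the precursor of miR-146a, 61.14, MIR130AHG 38.41 and MIR155HG, known from inflammation, 35.42, each over the start. MIR155HG also had a peak of 44.05 tags at a gap of 892 bp from its far end, the higher of the pair. MIR503HG had 26.79 tags over its far end. At the low end, among hosts with 1 peak, stood MIR663AHG with 8.42 tags and MIR5689HG with 10.2, and no such peak was called for 39 hosts, MIR100HG, MIR99AHG and MIR23AHG among them. Of the snoRNA hosts, SNHG5 had 82.28 tags and SNHG15 65.43, each over an end, and SNHG29 had 10.52 near its far end.

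The base composition of the promoters went along with the peaks. For 8091 lncRNA genes with a promoter more than 5 kb from protein-coding ends, the 300 bases at the start nearest to the outer end of the gene were used. Such a peak overlapped 1366 of these. Their median GC content was 55.7% and their observed over expected CG ratio 0.43, compared with 45.0% and 0.21 for the 6725 without a peak. Taking promoters with at least 50% GC and a ratio of at least 0.6 as CG-rich, 486 of the 1366 were CG-rich (35.6%, interval 33.1% to 38.2%), against 5.03% of those without a peak and 84.4% of the 10596 protein-coding promoters with a peak. The other way round, 59.0% of the 824 CG-rich lncRNA promoters had a peak, and 12.1% of the 7267 others did. For protein-coding promoters these shares were 89.6% and 28.3%. The share with a peak was 8.58% at a ratio under 0.2 and 64.8% at 0.8 to 1. At CG-rich starts the peaks had a median pileup of 39.8 tags and a length of 977.5 bp, and at the others 26.5 tags and 615 bp.

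The 880 open lncRNA promoters that were not CG-rich often held an AP-1 match. TGANTCA was present in 249 of them (28.3%, interval 25.4% to 31.4%). It was present in 11.3% of the 6387 lncRNA promoters without a peak that were not CG-rich, in 4.53% of the open CG-rich ones and in 7.69% of all 27195 promoters in the table taken once per gene. Open protein-coding promoters that were not CG-rich held it in 11.6% of 1653 cases (interval 10.1% to 13.2%). The lncRNA promoters that were not CG-rich had a peak in 25.7% of the 968 with an AP-1 match and in 10.02% of the 6299 without one. Such a difference was not limited to AP-1, as the share was 26.5% of the 340 with an ETS match (CCGGAA) and 11.4% of those without, and 22.99% of the 622 with a GC box and 11.1% of those without. It was 39.4% of the 33 with the CRE match TGACGTCA (13 promoters, interval 24.7% to 56.3%) and 11.99% of those without. For the TEAD match CATTCC it was 14.1% with and 11.6% without. The share was lower with a match for CCAAT (11.2% against 12.7%) and for TATAAA (8.72% against 12.98%). Matches for CTCF (24.4% of 41, against 12.04%) and NRF1 (16.7% of 6, against 12.1%) were few.

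Other motifs followed other patterns. The ETS match CCGGAA was found in 25.9% of the open CG-rich lncRNA promoters, 10.2% of the open others, 4.73% of all lncRNA promoters without a peak and 17.6% of all promoters in the table. The GC box was found in 73.7%, 16.3%, 9.80% and 44.6% of the same groups. Among the 338 CG-rich lncRNA promoters without a peak, the like comparison for the CG-rich ones, the ETS match was found in 20.1% (interval 16.2% to 24.7%, which overlaps that of the open ones, from 22.2% upwards) and the GC box in 53.3%. The GC box contains a CG, as does the ETS match, so motif and composition cannot be told apart in these shares. The TEAD match CATTCC was found in 10.9%, 23.3%, 19.1% and 14.1%, CCAAT in 28.6%, 34.9%, 37.1% and 35.7%, and TATAAA in 4.32%, 14.7%, 20.2% and 12.03%. The CRE match TGACGTCA and matches to single strings for NRF1 and CTCF were rare, at 2.12%, 1.17% and 1.32% of the 1366 open lncRNA promoters, 0.31%, 0.28% and 0.54% of the 6725 without a peak, and 1.97%, 1.37% and 1.11% of all promoters. Motifs were searched on both strands. A match says only that these letters are present in the window.

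**Figure D5:**
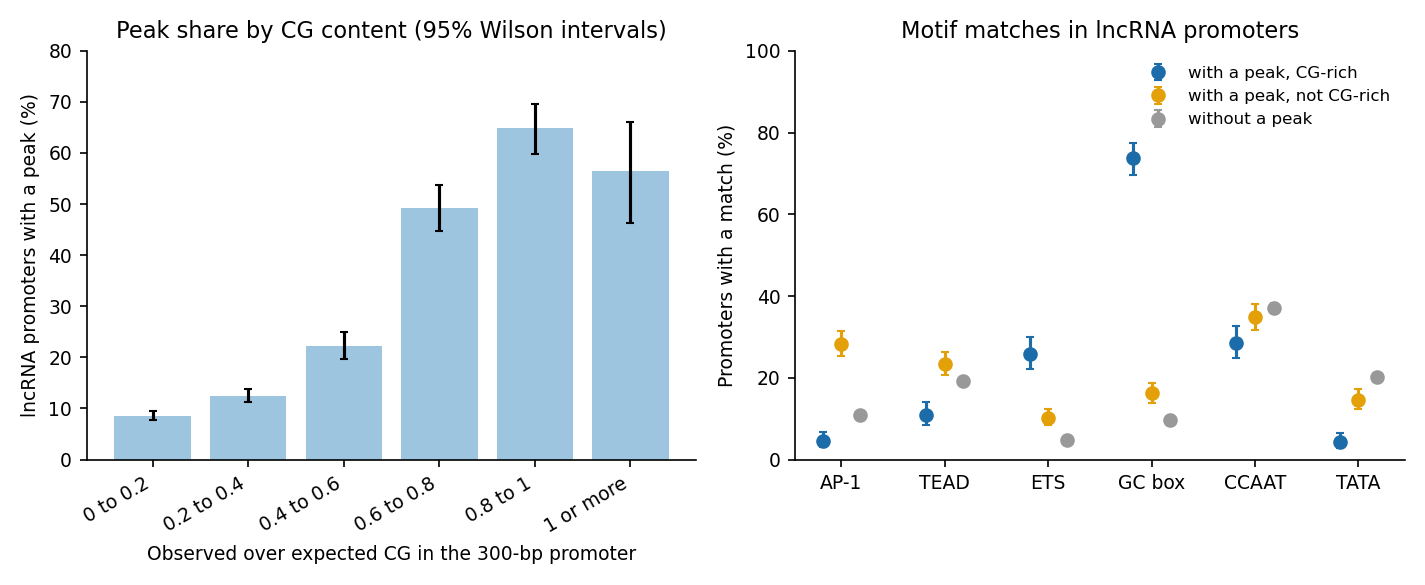
Left, share of the 8091 lncRNA promoters with a peak (vertical axis, %) by observed over expected CG ratio, with 95% Wilson intervals, which is 8.58% in the lowest group and 64.8% at 0.8 to 1. Right, share of promoters with a match (vertical axis, %) for 6 motifs, where AP-1 is found in 28.3% of promoters with a peak that are not CG-rich and in 4.53% of the CG-rich ones, and the GC box in 16.3% and 73.7%.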

How the data were processed

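The deposited ATAC file is a list of broad peaks from 1 library, called by the authors with MACS 2.2.7.1 and no control, per the file headers. For each peak the deposited list holds a pileup signal, a fold enrichment ratio, and the −log10 of a p-value and of a q-value. Per the file headers, ends were shifted by -100 bp and extended to 200 bp, the q cutoffs were 0.05 (strong) and 0.1 (broad), and the effective genome size was 1870000000 bp, the mouse preset. A smaller genome size raises the genome-wide background, and so affects fold, q and which regions were called. The header names no build, and the submitters' processing notes list Bowtie2, SAMtools 1.13, GRCh38 and mm10 without a role. Against the RefSeq table of GRCh38.p14, 14.9% of peaks lay within 1 kb of a protein-coding end, and 5.40% to 5.70% after moving all peaks by 10 or 50 kb. The 25 peaks on chromosome Y were left out. The 2 RNA tables list transcripts without gene names and were not used.

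Distances, overlaps (at least 1 bp) and shares were computed with Python 3.11.15 and pandas 2.3.3, with the functions tested on simulated data. Named lncRNAs were those of the 10 highest pileups inside and between protein-coding genes, the 3 longest peaks, the 3 highest folds, the most peaks, and members of lists of vascular lncRNAs and of microRNA and snoRNA hosts, leaving out XIST. The regions and lists were chosen with earlier results of these data known. The thresholds of 50 tags, 1000 bp, 6-fold, 50% GC and a CG ratio of 0.6, the profile by distance, the comparisons by gene length, host strand and both ends, the motif shares split by CG content and the printed promoters were chosen after the data had been seen.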

Additional observations from a re-analysis of the deposited data

How the results depend on the processing

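No paired analysis was possible because the ATAC group has 1 library, for which reason no library could be left out either. Of 46 alternative values, 20 stayed near the reported one (within 1.5 times for a count, otherwise within its 95% interval) and 26 moved. For the medians this interval was taken from the ranked peaks by the binomial distribution. It ran from 23.28 to 24.66 tags for pileup and from 524 to 550 bp for length. Stricter filters leave fewer peaks and wider windows take in more; no other cause was tested. The number of peaks, 4369, became 7261 within 2500 bp of a lncRNA end, 2873 when fold had to reach 4, and 1587 for genes with a symbol other than LOC and a number. The share inside protein-coding genes moved to 31.8% with the fold filter, and was identical when the whole peak had to lie in the gene. The share of lncRNA genes with a peak, 24.4%, was 19.3% within 500 bp, 34.1% within 2500 bp, 25.4% and 23.2% when 2 or 10 kb were kept from protein-coding ends, 19.2% where −log10 q reached 5, 17.6% where fold reached 4, 22.6% with 200 bp of overlap required and 28.4% without LOC genes. The median pileup was 24.8 tags within 500 bp, 22.8 within 2500 bp, 29.8 after filtering on q, 27.2 after filtering on fold and 26.45 without LOC genes. The median length was 584.5, 489, 641, 617 and 582 bp in the same order. Of 3251 pairs of a peak and a lncRNA end with a strand, 64.9% were at the start, and 70.4% within 500 bp. In alternatives chosen after seeing the data, 23.04% of starts and 10.1% of far ends had a peak for genes of at least 5000 bp, and 20.3% and 7.58% within 500 bp. With 1 library, the spread between cultures is unknown.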
